A study of Drosophila melanogaster with 6 samples.

Results

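The genes described here encode the sarcomere and the contractile apparatus of muscle: thick and thin filament proteins, titin-like and M-line proteins, Z-disc proteins and proteins associated with them, with the actins left out. They were chosen by name and not by a rule on measured values, though earlier results of these data were known. Of the 32 genes named, 31 had a row under their symbol among the 17490 genes of the RPKM table, and wupA (troponin I) had none. Of the rows, 83 have no symbol, and whether wupA is among them is not known. RPKM is a read count scaled by gene length and by library size, so that levels can be compared between genes. GFP+ myoblasts were sorted from Drosophila leg discs at 0 h after pupae formation (APF) and compared with input, which was taken from the leg disc cells as a whole, with 3 libraries in each group. Both groups carried R32D05-lexA>lexAopGFP, in which the R32D05 regulatory region drives GFP in the leg disc myoblasts. The input still holds the myoblasts, so each comparison is of sorted myoblasts with the whole disc. How many discs went into a library is not given in the sources used here, and p-values therefore measure the spread between these libraries.

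The sarcomere is the repeating unit of striated muscle, in which myosin thick filaments slide along thin filaments of actin, tropomyosin and troponin. Thin filaments are anchored in the Z-disc through alpha-actinin and PDZ and LIM domain proteins, and titin-like proteins link the Z-disc to the thick filaments. Leg disc myoblasts are precursors of the adult leg muscles: they proliferate during larval life, fuse during pupal life and build sarcomeres later. Several of these genes, among them those of tropomyosin 1, tropomodulin and alpha-actinin, also make forms that work in the cytoskeleton of cells other than muscle.

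Markers of cell types were looked at first. All 7 myoblast markers were called higher in myoblasts, where their RPKM summed to 483 to 591 per library against 80.1 to 112 in the input. The authors of the study name these 7 among the genes enriched in this same comparison. Their calls are therefore no independent check of the labels. Of 7 tested markers of the disc epithelium, 6 were called lower, and the list summed to 72.5 to 92.0 RPKM in myoblasts against 1860 to 2503 in the input. In each library RPKM times exon length came in steps of equal size, each worth 1 read, which gave 64759715 to 84316453 reads behind the values of the myoblast libraries and 41455114 to 67763265 behind those of the input. Input replicate 1, the shallowest library, stood apart in its RPKM sum (963726, against 481720 and 589908 in the other inputs). The 7533 genes that reached 1 RPKM in 3 or more of the 6 libraries were tested with limma on log2(RPKM + 1). Genes were called where the fold change exceeded 1.5 with a Benjamini-Hochberg adjusted p, over all tested genes, below 0.05.

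Most of the contractile apparatus was at or near 0 in both groups. Low values were common over the whole table too, where 7533 of 17490 genes passed the filter for testing. Another 3659 genes had a value above 0 in some library, and the rest were at 0 throughout. Low values and zeros are therefore not read as particular to these genes. Of the 31 genes, 18 stayed under 1 RPKM in every library, 4 (fln, TpnC25D, TpnC41C and TpnC4) were listed at 0 in all 6 libraries, and 10 passed the filter for testing. Among those 10, 3 rose in myoblasts (TpnC73F, sls and Argk), where 5.52% of all tested genes were called higher. Another 3 fell (Zasp52, tmod and Actn), where 14.8% of all tested genes were called lower. The filter bears on these counts. Mlc2 and sls reached 1 RPKM in myoblast libraries alone, TpnC73F in the 3 myoblast libraries and 1 input, and Zasp52 in input libraries alone. These 4 genes, 3 of them called, could be tested only because they were high in a group, and nothing is read from the counts beside the shares. The median log2 fold change of the 10 was 0.31, beside 0.01 over all tested genes. It was 0.92 after quantile normalization and 0.16 without input replicate 3, and it was -0.42 when only the 5 of them whose mean RPKM exceeded 5 were tested.

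**Figure D1:**
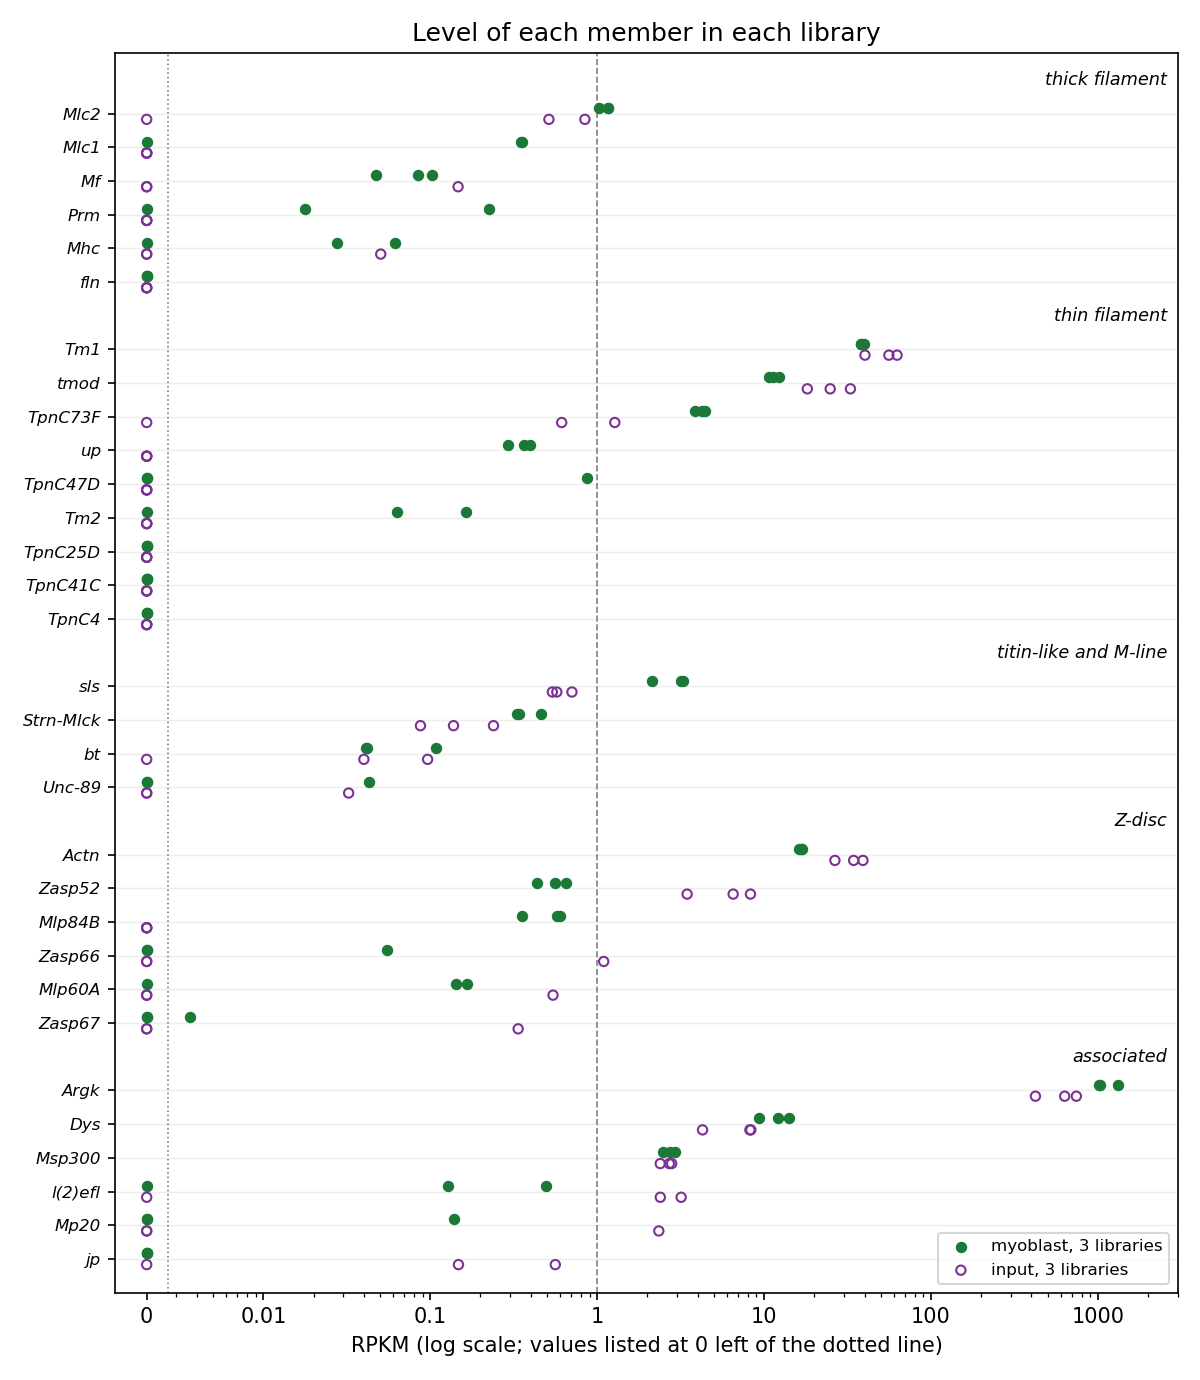
RPKM of the 31 genes (log axis) in 3 myoblast libraries (filled) and 3 input libraries (open), grouped by role, with values listed at 0 left of the dotted line and the level of 1 RPKM dashed. Argk lay between 423 and 1328 RPKM, and 18 genes stayed under 1 RPKM throughout.

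The thick filament genes were low in both groups, with a summed RPKM of 1.28 to 1.68 in the myoblast libraries and 0.0505 to 0.844 in the input. Mhc, the only gene for the heavy chain of muscle myosin in the fly (FBgn0264695, chromosome 2L of dm6, 16766566 to 16788766), had 0.0616, 0.0275 and 0 RPKM in myoblast replicates 1, 2 and 3, against 0, 0 and 0.0505 RPKM in input replicates 1, 2 and 3. These values overlap, and they rested on 47 and 21 reads in myoblasts and on 31 reads in the input.

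Mlc2, the regulatory light chain of muscle myosin (FBgn0002773, chromosome 3R, 30171438 to 30174551), was the only thick filament gene that could be tested. It had 1.15, 1.17 and 1.02 RPKM in myoblasts, against 0.844, 0.514 and 0 RPKM in the input. All 3 myoblast libraries lay above the highest input, but the log2 fold change of 0.59 (standard error, SE, 0.340) was not past the threshold (adjusted p = 0.299). After quantile normalization it was called, with a log2 fold change of 1.31 (adjusted p = 0.0157). Without input replicate 3, the input at 0, the fold change was 0.34 (adjusted p = 0.547).

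Mlc1, the essential light chain, was listed at 0, 0.352 and 0.349 RPKM in myoblasts and at 0 in all 3 inputs. Prm, the paramyosin gene for the core of the thick filament, had 0.0177, 0 and 0.225 RPKM in myoblasts and was likewise at 0 in the input. Mf (myofilin), another thick filament protein, was above 0 in all 3 myoblast libraries, at 0.0471 to 0.103 RPKM, and in 1 of the inputs, at 0.147 RPKM. The gene of flightin (fln), which binds myosin in flight muscle, was at 0 throughout.

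In the thin filament TpnC73F was called higher and tmod lower, Tm1 was not called, and the other genes with a row were below the filter. TpnC73F (FBgn0010424, chromosome 3L, 17046063 to 17048390) encodes a troponin C, the calcium-binding subunit of troponin. It had 4.43, 4.23 and 3.88 RPKM in myoblasts, against 1.28, 0 and 0.613 RPKM in the input. The groups did not overlap, and the lowest myoblast library stood at 266 reads while the inputs had 56, 0 and 44 reads. The log2 fold change was 1.75, the highest among the 10 tested genes (SE 0.361, limma adjusted p = 0.0106). Without any one of the 3 myoblast libraries the fold change held at 1.71 to 1.79 but the call was lost (adjusted p of 0.0516 to 0.0612), and voom on the recovered reads did not call it either (adjusted p = 0.149). Mean input RPKM was 15.1% of mean myoblast RPKM for TpnC73F, beside 16.1% to 33.7% for the 7 myoblast markers. Those markers were named by the authors as enriched in these data, and TpnC73F passed the filter through its myoblast libraries. Nothing is read from how close these shares are.

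The other 4 troponin C genes did not share this level. TpnC47D was above 0 in a single library, myoblast replicate 2, with 0.870 RPKM from 58 reads. TpnC25D, TpnC41C and TpnC4 were at 0 in all libraries. An exon of TpnC25D shares 54 bases with tkv, which lies on the opposite strand. The troponin T gene up (FBgn0004169, chromosome X, 13593474 to 13602578), whose product ties the troponin complex to tropomyosin, had 0.291, 0.398 and 0.366 RPKM in myoblasts and 0 in all 3 inputs. Its myoblast values rested on 62, 85 and 60 reads.

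The tropomyosin genes Tm1 and Tm2, whose products lie along the actin filament, are neighbours on chromosome 3R, 1413 bases apart and on the same strand, and their levels were far apart. Tm1 (15278220 to 15308779) had 38.1, 39.9 and 37.9 RPKM in myoblasts, against 40.2, 62.7 and 56.0 RPKM in the input. Tm2 (15310193 to 15315197) had 0.0635, 0.163 and 0 RPKM in myoblasts and 0 in every input. For Tm1 every myoblast library lay below every input library, with a gap of less than 1 RPKM between the nearest libraries, and the log2 fold change of -0.42 (SE 0.209) was not called (adjusted p = 0.221). Without input replicate 1 it was called, at -0.60 (adjusted p = 0.00934). The annotation lists 18 transcripts for Tm1, and a value per gene does not separate its muscle and cytoplasmic forms.

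Tropomodulin (tmod), which caps the pointed ends of actin filaments (FBgn0082582, chromosome 3R, 30532607 to 30578905), had 10.6, 12.4 and 11.3 RPKM in myoblasts, against 18.2, 32.9 and 24.9 RPKM in the input. All 3 myoblast libraries lay below the lowest input, and tmod fell by 1.05 on the log2 scale (SE 0.254, adjusted p = 0.0214). The call was lost without any one myoblast library, without input replicate 3, with libraries rescaled to the same sum and with voom, at fold changes of -1.10 to -0.999 and an adjusted p of 0.0724 to 0.210.

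Among the titin-like and M-line proteins, sls had the highest level. It encodes the fly titin (Sallimus), which links the Z-disc to the thick filament, and lies on chromosome 3L from 2039681 to 2115611 (FBgn0086906), with 58996 exon bases. It had 2.14, 3.29 and 3.17 RPKM in myoblasts, against 0.706, 0.539 and 0.573 RPKM in the input. Because the gene is long, these low RPKM values rested on 10649, 16355 and 12112 reads in myoblasts and on 1727, 1921 and 2291 reads in the input. Every myoblast library lay above every input, and sls rose by 1.26 on the log2 scale (SE 0.290, limma adjusted p = 0.0172). The ratio of the mean RPKM, without the added 1, was 4.73, and mean input RPKM was 21.1% of mean myoblast RPKM. The call was lost without any one myoblast library (fold changes of 1.17 to 1.40, adjusted p of 0.0597 to 0.11) and with libraries rescaled to the same sum (adjusted p = 0.0561).

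Strn-Mlck, a long gene for a protein with titin-like domains and a kinase domain (FBgn0265045), was below the filter, with 0.332, 0.339 and 0.460 RPKM in myoblasts against 0.239, 0.0874 and 0.138 RPKM in the input. The groups did not overlap, and there were 916 to 976 reads in each myoblast library and 173 to 325 in each input. The projectin gene bt had 0.0411 to 0.108 RPKM in myoblasts against 0 to 0.0964 RPKM in the input, and the obscurin gene Unc-89, whose product lies at the M-line, was above 0 in 1 library of each group, at up to 0.0430 RPKM. The groups overlapped for bt and for Unc-89.

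Of the Z-disc genes, Zasp52 and Actn fell while Mlp84B had reads in myoblast libraries only. Zasp52 encodes a PDZ and LIM domain protein that binds alpha-actinin (FBgn0265991, chromosome 2R, 15762565 to 15817004). It had 0.652, 0.557 and 0.439 RPKM in myoblasts, against 3.46, 8.29 and 6.53 RPKM in the input. All 3 myoblast libraries were far below the lowest input, and Zasp52 fell by 2.13 on the log2 scale (SE 0.344, adjusted p = 0.00328). This was the most negative of the 10 fold changes. Zasp52 was called in all 15 alternatives that tested it, with fold changes of -3.34 to -1.31 and an adjusted p of at most 0.0221. Its relatives were lower still. Zasp66 had 0.0549, 0 and 0 RPKM in myoblasts against 0, 1.09 and 0 RPKM in the input, and Zasp67 had 0.00366, 0 and 0 RPKM in myoblasts, a single read, against 0, 0.336 and 0 RPKM in the input.

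Actn, the alpha-actinin that cross-links actin filaments (FBgn0000667, chromosome X, 2023822 to 2042311), had 16.8, 16.6 and 16.1 RPKM in myoblasts, against 26.6, 39.1 and 34.4 RPKM in the input. The myoblast libraries were nearly equal and all lay below the inputs, and Actn fell by 0.96 on the log2 scale (SE 0.208, adjusted p = 0.0133). As for tmod, the call was lost without any one myoblast library, without input replicate 3, with libraries rescaled to the same sum and with voom, at fold changes of -0.97 to -0.93 and an adjusted p of up to 0.186. Exons of Actn share 826 bases with east and 196 with CG4313 on the opposite strand and 265 with usp on the same strand, out of 5272, and how such reads were assigned is not given in the sources used here.

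Mlp84B and Mlp60A encode muscle LIM proteins and were grouped here with the Z-disc genes. Mlp84B (FBgn0014863, chromosome 3R, 7112850 to 7117732) had 0.356, 0.598 and 0.576 RPKM in myoblasts, from 94, 158 and 117 reads, and 0 in all 3 inputs. It was below the filter, and when genes below the filter were tested as well it was called higher (limma adjusted p = 0.0355). No fold change is given, since the input was listed at 0. In the same fit Argk was not called (adjusted p = 0.0792), so that 3 of the 27 genes with a value were again called higher, against 3.03% of all genes in that fit. It also called 3 of the 27 lower (Zasp52, tmod and Actn), against 1116 of all 11192 genes. Nothing is read from these counts beside the shares. Mlp60A had 0.142, 0.167 and 0 RPKM in myoblasts against 0.544, 0 and 0 RPKM in the input.

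Argk held most of the signal of the whole list. It encodes arginine kinase, the enzyme that buffers ATP in insect muscle and also in other tissues (FBgn0000116, chromosome 3L, 9048781 to 9066027). It had 1034, 1009 and 1328 RPKM in myoblasts, against 743, 423 and 633 RPKM in the input. Every myoblast library lay above every input. By mean RPKM Argk ranked 114th of 17490 genes in myoblasts and 147th in the input, and it made up 91.2% to 93.6% of the summed RPKM of the 31 genes in myoblast libraries and 72.6% to 88.0% in inputs. The log2 fold change was 0.93 (SE 0.277), just past the threshold (adjusted p = 0.0487). The call held in 7 of 16 alternatives, with fold changes of 0.70 to 1.11 over all of them. It was lost without any one library other than input replicate 1, with 0.1 added in place of 1, with every gene tested, with a mean RPKM over 5 and without the empirical Bayes trend. With Argk left out, the genes summed to 88.0 to 97.9 RPKM in myoblasts against 101 to 160 RPKM in the input.

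**Figure D2:**
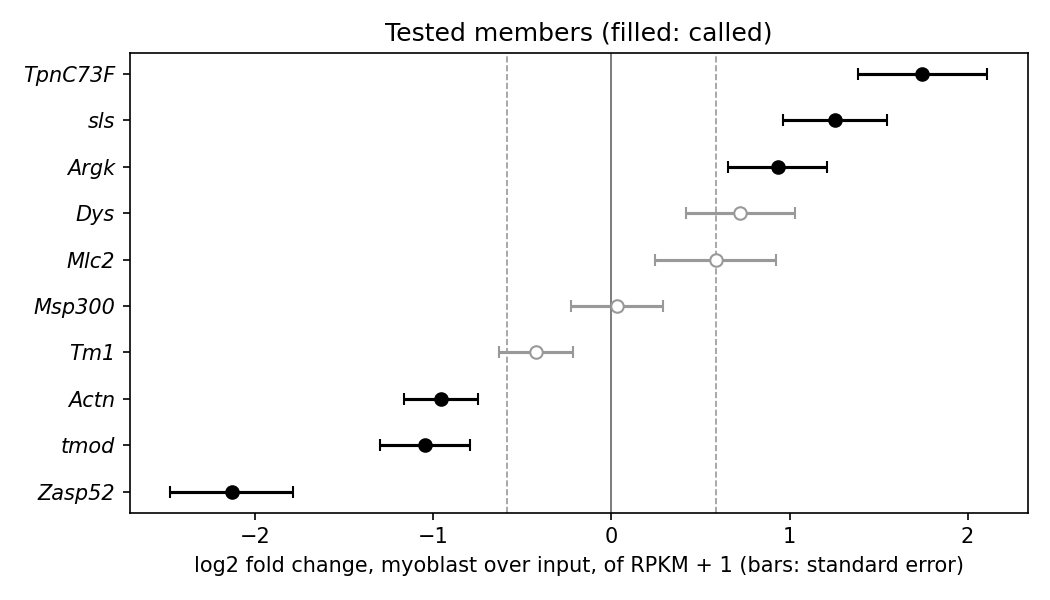
Log2 fold change of RPKM + 1, myoblast over input, for the 10 tested genes, with SEs. Filled points were called, and dashed lines mark a fold change of 1.5. TpnC73F (1.75), sls (1.26) and Argk (0.93) were called higher, and Actn (-0.96), tmod (-1.05) and Zasp52 (-2.13) lower.

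Neither the membrane linker Dys nor the nuclear linker Msp300 was called. Dys, the dystrophin that ties the cytoskeleton to the membrane (FBgn0260003, chromosome 3R, 19461085 to 19597288), had 9.34, 14.1 and 12.1 RPKM in myoblasts, against 4.28, 8.22 and 8.33 RPKM in the input. The groups did not overlap, and the log2 fold change of 0.72 (SE 0.307) was not called (adjusted p = 0.154). After quantile normalization Dys was called at 0.91 (adjusted p = 0.0452), and without input replicate 1 its fold change was 0.45 (adjusted p = 0.148). Msp300, the giant nesprin that links nuclei to the cytoskeleton (FBgn0261836, chromosome 2L, 5100877 to 5207002), had 2.72, 2.48 and 2.94 RPKM in myoblasts, against 2.71, 2.8 and 2.39 RPKM in the input. These ranges overlapped, and the log2 fold change was 0.03 (SE 0.259, adjusted p = 0.952), with 7831 or more reads in each library. The sign turned without myoblast replicate 3 or input replicate 3 (-0.01 and -0.02), and after quantile normalization the value was 0.93, again not called (adjusted p = 0.0643).

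Mp20, l(2)efl and jp had higher RPKM in 1 or 2 of the inputs than in any myoblast library. Mp20, a calponin-like muscle protein, had 0.138, 0 and 0 RPKM in myoblasts against 2.34, 0 and 0 RPKM in the input. In the same input replicate 1 the fat body gene Fbp1 had 6.0 RPKM, against 0 and 0.281 RPKM in input replicates 2 and 3, and the hemocyte gene He had 38.8 RPKM, against 2.02 and 3.73. Not all hemocyte genes went this way. Pxn had 1.22 RPKM in input replicate 1, against 4.26 and 4.69, and Hml had 0.0677 RPKM or less in every input. The small heat shock protein gene l(2)efl had 0.497, 0.128 and 0 RPKM in myoblasts against 0, 2.39 and 3.19 RPKM in the input. The neuronal gene elav had 2.8, 3.99 and 3.11 RPKM in myoblasts against 6.27, 24.0 and 23.8 RPKM in the input, so it too was lowest among the inputs in replicate 1. The junctophilin gene jp, for a protein that joins the plasma membrane to the sarcoplasmic reticulum, was at 0 in myoblasts and at 0, 0.561 and 0.148 RPKM in the input, and 79.6% of its exon bases are shared with CG46468. The part of other cell types in these values was not tested. In bulk samples such as these, fewer cells of a type and less RNA per cell cannot be told apart.

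Many markers of other cell types were called lower in myoblasts, as were Zasp52, tmod and Actn and 14.8% of all tested genes. Those of the disc epithelium, with 6 of 7 called lower, are given above. Of the tested markers, 3 of 3 for tendon precursors, 3 of 3 for neurons, 3 of 4 for trachea, 2 of 3 for hemocytes and 2 of 3 for glia were called lower as well. The tendon precursor list summed to 1.35 to 1.45 RPKM in myoblasts against 65.5 to 76.1 RPKM in the input, the neuron list to 2.93 to 4.38 against 13.4 to 56.4, the trachea list to 3.74 to 4.72 against 206 to 311, the hemocyte list to 2.41 to 4.49 against 9.87 to 52.2, and the glia list to 7.53 to 10.6 against 8.45 to 17.7. No marker in these 5 lists was at 0 in all 6 libraries, and gcm (glia) was at 0 in all 3 myoblast libraries. The fat body list summed to at most 0.641 RPKM in myoblasts and 24.7 in the input. The salivary gland list summed to at most 1.81 RPKM in myoblasts and reached 390 in the input, with all 5 of its genes highest in input replicate 3. The part of these cells in the lower values of Zasp52, tmod and Actn was not tested.

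The 10 tested genes varied less between myoblast libraries than between inputs. Their coefficient of variation was 2.0% to 21.9% in myoblasts and 8.12% to 101% in inputs, and it was larger in the input for 8 of the 10. The 101% was that of TpnC73F, which had an input at 0. The difference was not particular to these genes. Across all tested genes, myoblast libraries correlated with each other at 0.980 to 0.986 (Pearson, log2 values), and inputs at 0.875 to 0.954. Over the tested genes as a whole, the myoblast libraries all lay above the inputs in 16.4% and all below them in 21.5%. Of the 10 genes, 5 lay above and 4 below, and Msp300 was the exception. Mlc2, sls and TpnC73F, which lay above, and Zasp52, which lay below, passed the filter through the group where they were high. The filter favours such genes, so nothing is read from these counts beside the shares. An exact permutation test of a single gene cannot go below p = 0.1 with 3 libraries against 3.

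Below the filter, 21 of the 31 genes remained, and 17 of these had a value above 0 in some library. In 3 of the 17 (up, Mlp84B and Strn-Mlck) every myoblast library lay above every input, where this held for 2.62% of all genes below the filter that had a value. In 2 of the 17, up and Mlp84B, all 3 myoblast libraries had reads and no input had any, against 1.91% of such genes. In 6 of the 17 (Mlc1, Prm, Tm2, up, TpnC47D and Mlp84B) some myoblast library had reads and no input had any, against 28.4%. None of these 6 genes exceeded 1 RPKM in any library.

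**Figure D3:**
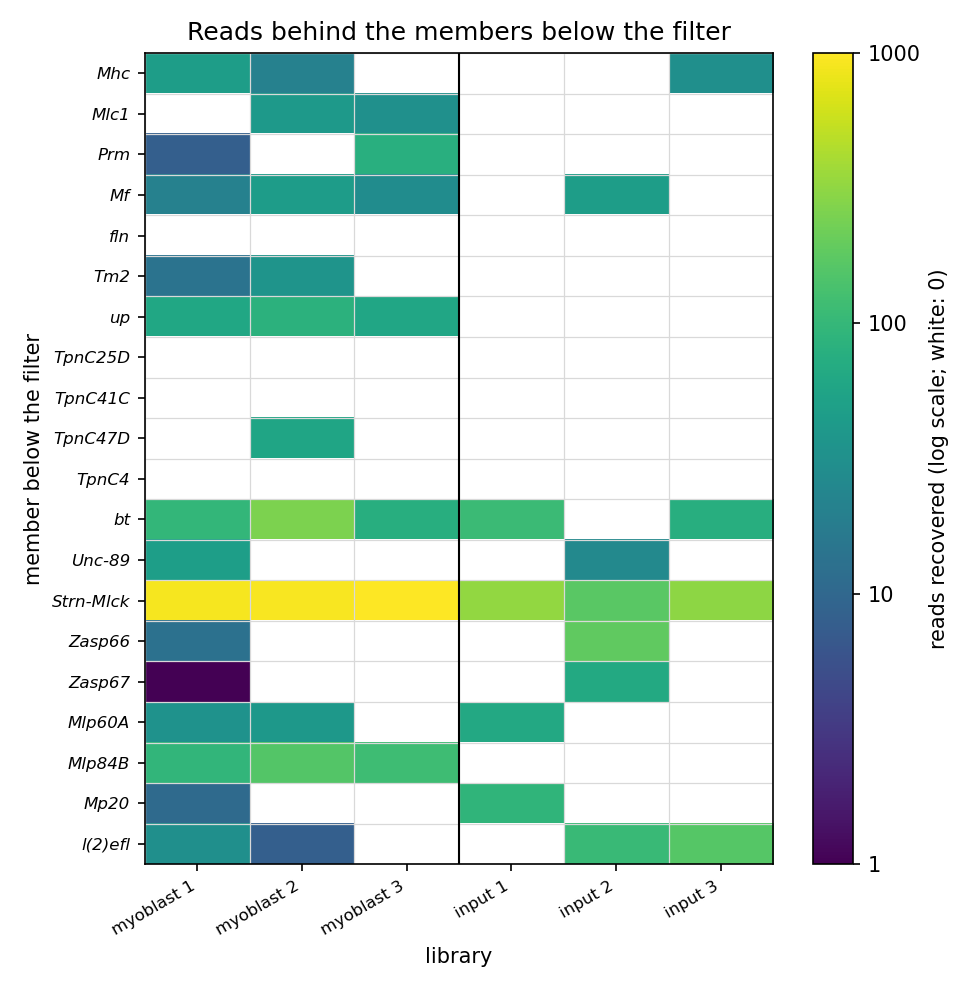
Reads recovered from RPKM and exon length (colour, log scale, white for 0) for the genes below the filter, except jp, in the 3 myoblast and 3 input libraries. Reads of up and Mlp84B were found in all 3 myoblast libraries and in no input, and Strn-Mlck had the most reads, 916 to 976 in myoblasts and 173 to 325 in inputs.

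The reads show how far a value of 0 can be read. For 28 of the 31 genes the values came out as whole reads in all 6 libraries, within 0.05 reads. For Tm1, Zasp52 and jp they did not, with the exon lengths of the annotation used here. Of 92 values above 0 in the 28 genes, 3 rested on 1 to 9 reads and 34 on 10 to 99 reads. At their mean myoblast level, up would have had 36.9 to 60.3 reads in an input library, Mlp84B 66.3 to 108 reads, and Mlc1, Prm, Tm2 and TpnC47D between 8.20 and 29.4 reads. Genes that the other inputs predicted to have 20 to under 50 reads were listed at 0 in 54.4% to 76.8% of cases, and those predicted to have 50 to under 100 reads in 38.3% to 50.5%. No fold change is given for these 6 genes.

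Each muscle form of myosin and the troponin C genes were far below their non-muscle counterparts in both groups. The non-muscle myosin heavy chain gene zip had 79.1, 108 and 104 RPKM in myoblasts, against 61.5, 116 and 103 RPKM in the input, and Mhc reached at most 0.0779% of that level in a myoblast library and 0.0491% in an input. Mlc2 stood at 0.416% to 0.562% of sqh, the non-muscle regulatory light chain, in myoblasts and at 0 to 0.340% in the input. Mlc1 reached at most 0.151% of Mlc-c, the non-muscle essential light chain, in myoblasts and was at 0 in the input.

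The 5 troponin C genes together came to 2.71% to 3.96% of Cam, the calmodulin gene, in myoblasts and to 0 to 0.744% in the input. Of the 8 non-muscle genes tested, which include zip, sqh, Mlc-c and Cam, only the cytoplasmic actin gene Act42A was called. Its log2 fold change was -1.48 (limma adjusted p = 0.00101), where 14.8% of all tested genes were called lower. The values for zip, sqh, Mlc-c and Cam were 0.09, 0.17, -0.11 and -0.59, with adjusted p from 0.0870 to 0.873.

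**Figure D4:**
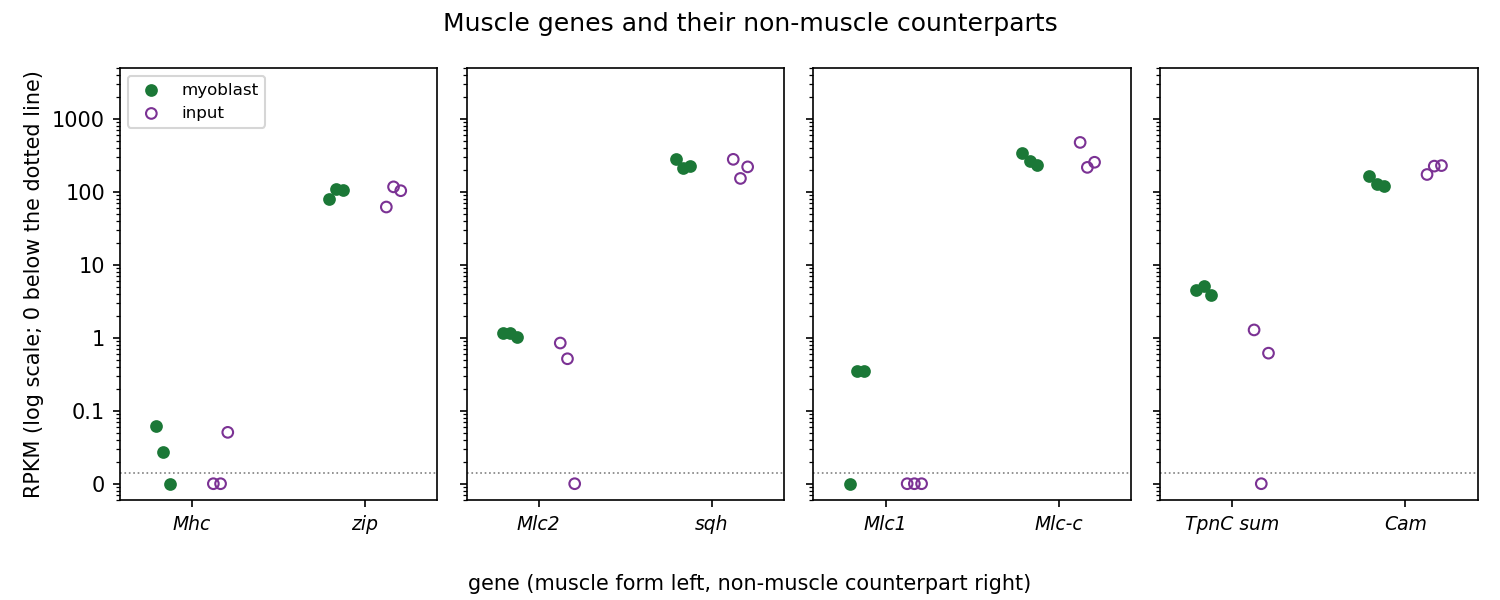
RPKM (log axis) of Mhc, Mlc2, Mlc1 and the sum of the 5 troponin C genes beside their non-muscle counterparts zip, sqh, Mlc-c and Cam, in 3 myoblast libraries (filled) and 3 input libraries (open), with 0 below the dotted line. The muscle forms reached at most 5.10 RPKM, and the counterparts had at least 61.5 RPKM.

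Genes that act with the sarcomere were taken from other lists. Of 15 genes of sarcomere assembly and thin filament length, 12 were tested, with a median log2 fold change of 0.34. Of these 12, 2 rose, where 5.52% of all tested genes were called higher, and 2 fell, where 14.8% were called lower. Nothing is read from these counts beside the shares. The genes that rose were unc-45, a myosin chaperone, with 28.9 ± 3.66 RPKM in myoblasts and 15.7 ± 0.715 RPKM in the input (SD, n = 3 libraries each; log2 fold change 0.83, limma adjusted p = 0.0178), and Lmpt, a LIM domain protein, with 7.57 ± 1.37 against 2.94 ± 0.571 RPKM (log2 fold change 1.12, adjusted p = 0.0206). Those that fell were cher, the filamin, with a log2 fold change of -1.54 (adjusted p = 0.00370), and Chd64, a calponin-like protein, with -2.55 (adjusted p = 0.000308). The remaining 8, such as the capping protein subunits cpa and cpb and the formin DAAM, were not called.

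Of 10 names listed for calcium release and excitation-contraction coupling, 4 matched a tested row. The row matched to stac carries the symbol Unc-13-4B, so it is not taken as a gene of this coupling. The others were SERCA, CaMKII and the IP3 receptor gene Itpr, which was not called (log2 fold change -0.65, limma adjusted p = 0.174). CaMKII, a calcium- and calmodulin-dependent kinase, was the gene called, where 14.8% of all tested genes were called lower. It fell by 0.71 on the log2 scale (adjusted p = 0.0164). SERCA, the calcium pump of the sarcoplasmic reticulum, had 21.9, 33.7 and 28.7 RPKM in myoblasts against 15.6, 37.9 and 35.4 RPKM in the input, which overlap (log2 fold change 0.00, adjusted p = 0.998). The ryanodine receptor gene RyR stayed at 0.237 RPKM or less in every library, and SclA and SclB, for the sarcolamban peptides that regulate SERCA, were at 0 throughout. Among the striated muscle actins, 2 of 3 tested were called higher (Act57B and Act87E), where 5.52% of all tested genes were. For these 2 the input held 13.6% and 19.2% of their mean myoblast RPKM, beside 15.1% for TpnC73F and 21.1% for sls. TpnC73F and sls passed the filter through their myoblast libraries, so these shares are not read as a likeness.

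The counts depend on the scaling between libraries. Higher genes made up 27.1% of all calls on the deposited values, 16.8% with libraries rescaled to the same sum and 50.4% after quantile normalization, where all tested genes had a median of 0.16. The 6 called genes kept their direction in each of these. TpnC73F, Argk and Zasp52 also kept their calls in each, while sls, tmod and Actn lost theirs with libraries rescaled to the same sum.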

How the data were processed

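mRNA libraries of 3 GFP+ myoblast and 3 input replicates were analysed from the deposited RPKM table. Per the methods and the submitters' processing notes, the authors filtered reads with Cutadapt, aligned them with HISAT2 2.1.0 to dm6, counted them with HTSeq 0.11.2 (Ensembl release 70 is named) and computed the deposited RPKM with Cufflinks. They tested genes with DESeq2 on counts, which were not used here. The strand setting is not given in the sources used here.

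Values were taken as log2(RPKM + 1) without further scaling and compared with limma 3.58.1 (R 4.3.3) with the empirical Bayes trend, over genes that reached 1 RPKM in 3 or more of 6 libraries. Fold changes on this scale understate the change of low genes. The fit was tested on simulated data. Reads were recovered from RPKM and summed exon length (Ensembl release 115, dm6 coordinates, 17216 genes matched, Python 3.11.15) as whole multiples of a step, within 0.05 reads for 97.3% to 98.6% of genes with fewer than 100 reads. In input replicate 1 the reads on matched genes (45603729) exceed the total that the step gives (41455114), for a reason that is not known. Of the table's rows, 83 have no symbol.

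The members, the lists and the tests were chosen with earlier results of these data known. Values per library are given for every tested member, and other genes come only from the fixed lists. Alternatives were a pseudocount of 0.1, other filters and scalings, a replicate block, each library left out, no trend and no adjustment of p. Voom on the recovered reads was added after seeing the data.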

Additional observations from a re-analysis of the deposited data

How the results depend on the processing

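Of the genes studied, 3 were called higher and 3 lower. With a mean RPKM over 5, where 5 of them remained, 0 were called higher (limma, 2 at an unadjusted p under 0.05), and after quantile normalization 5 were. Leaving out a library gave 0 to 3 called higher and 1 to 4 called lower. The count of 0 came without myoblast replicate 1, 2 or 3 (4, 3 and 3 at an unadjusted p under 0.05, and 2 called with voom on all 6 libraries), fits which also called fewer genes in all. Only 1 was called lower with libraries rescaled to the same sum and also with voom. Over all genes, 416 were called higher, against 176 with libraries rescaled to the same sum, 809 after quantile normalization, 763 without adjustment of p, 216 with voom and 139 to 871 without a library. The number called lower was 1118, against 607 with a mean RPKM over 5, 530 with voom and 759 to 1471 without a library. None of the 6 called genes studied changed direction in any alternative that tested it.

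With a replicate block, 3 of the genes studied were again called higher and 3 lower, and 491 and 1177 over all genes. Deviations of libraries with the same number correlated at 0.345, 0.262 and 0.00685 for replicates 1, 2 and 3. The numbers are therefore not taken as pairs, and replicates 1 and 2 of each group, but not replicate 3, correlated best with their own number. The cause of the zeros in the inputs and of the calls lost was not tested.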
